A study of Mus musculus with 7 samples.

Results

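General pluripotency genes and genes of the Dppa group were followed in inner cell masses (ICMs) of mouse embryos with a tamoxifen-inducible activator of the ERK kinase pathway. The ICMs were compared after 4 h of tamoxifen or vehicle. The 10 members, Pou5f1, Sox2, Sall4, Utf1, Lin28a, Dppa2, Dppa3, Dppa4, Dppa5a and Tdh, were the rows of the deposited count table whose Ensembl gene ID carries one of these symbols in the gene annotation, 10 of 52636 rows. The rule uses names and no measured value. The length of each transcript was recorded beside its values, because the members span short and long transcripts and 1 library was low in short ones.

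Pluripotency is the capacity of the epiblast to form all tissues of the embryo. It rests on transcription factors that bind DNA together, above all the products of Pou5f1 and Sox2, and on regulators of chromatin, RNA and metabolism that are abundant in the ICM and in embryonic stem cells. ERK signalling downstream of FGF receptors steers ICM cells away from the epiblast fate and towards primitive endoderm.

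All embryos carried Sox2Cre and the CRAFR26 construct, a tamoxifen-inducible form of the kinase cRAF that activates ERK. Sox2Cre is a Cre recombinase under Sox2 regulatory sequence. All were flushed at embryonic day 2.5, cultured for 24 h with 250 nM of the FGF receptor inhibitor PD173074, freed of trophectoderm by immunosurgery and pooled, 10 ICMs to a library with 2 ng of RNA. The tamoxifen group received 250 nM 4-hydroxytamoxifen (4OHT) for 4 h and held 4 libraries, clone4_1, clone4_2, clone8_1 and clone8_2. The vehicle group received ethanol for the same time, carries the time label 0 h, and held 3 libraries, clone4_1, clone4_2 and clone8_1. The names refer to 2 clones, 4 and 8, so clone 8 had a single vehicle library. The labels call the material epiblast of embryonic day 3.5. Each library was a pool, and p-values measure the spread between these pools.

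Library totals ran from 22981498 to 42294719 counts. Vehicle clone8_1 stood apart. Set against the median library, its short transcripts were low: by a median of -2.16 (log2 CPM) in 248 protein-coding genes below 600 nt, and of -1.16 in the 914 genes between 600 and 1000 nt. In the classes from 1000 nt upwards the median was between 0 and 0.033. The change of each member is therefore also given without this library. The comparison of clones cannot be made without it. Tamoxifen clone8_1 deviated the other way, by a median of 0.37 below 600 nt and of 0.20 between 600 and 1000 nt. Markers of all 3 lineages of the blastocyst were counted. The 10 trophectoderm markers summed to between 8530 and 11228 CPM (counts relative to library size, after TMM scaling) in vehicle and between 6546 and 9534 CPM in tamoxifen libraries. Most of this was Krt8 (2250 to 3837 CPM over all libraries) and Krt18 (1969 to 4127 CPM). Cdx2 had 324 to 543 CPM, so transcripts of trophectoderm markers remained in every library after immunosurgery. The 9 naive epiblast markers that passed the expression filter summed to 1665 to 2044 CPM in vehicle and 1708 to 2198 CPM in tamoxifen libraries. Of these 9, 7 had a log2 fold change above 0 and 2 below (median 0.37). For 9 primitive endoderm markers the sums were 844 to 1148 CPM and 884 to 1031 CPM, most of it Dab2 (560.2 to 823 CPM over all libraries). Of them 6 had a log2 fold change above 0 and 3 below (median 0.49). The 3 below were Pdgfra (-0.50), Dab2 (-0.21) and Fgfr2 (-0.067). Higher without overlap between groups were 2, Sox17 at 2.58 ± 0.75 (SE) and Lama1 at 1.35 ± 0.36 (SE). The primitive endoderm marker Sox7, which did not pass the filter, had 0 to 12 counts. All 10 trophectoderm markers had a log2 fold change below 0 (median -0.33), 2 of them lower without overlap. Over all tested genes 3.71% were higher and 4.74% lower without overlap. The part of these marker differences in the members' values was not tested.

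All 10 members were well counted, from 398 counts of Lin28a in tamoxifen clone4_2 to 181105 counts of Dppa3 in tamoxifen clone4_1. Levels were compared between genes only per length, as counts per kilobase of typical transcript scaled to sum alike in each library. Dppa5a and Dppa3 were the most abundant members and Lin28a and Sox2 the least. Dppa5a, a small KH-domain protein that binds RNA, had a median of 7829 over the 7 libraries (lowest 1791, highest 10435). Dppa3, a maternal factor that protects DNA methylation in the zygote, had a median of 7270 (4307 to 9170). These neighbours did not differ beyond their spread, and Dppa5a was above Dppa3 in 5 of 7 libraries. Next in the order came Dppa2 with a median of 747 (432 to 1178), and its range lay wholly below that of Dppa3.

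Dppa2 and Pou5f1, at a median of 643 (560 to 856), overlapped, with Dppa2 higher in 4 of 7 libraries. Utf1 followed with 393 (271 to 550), a range wholly below that of Pou5f1. Utf1 and Dppa4, at 294 (253 to 497), overlapped, with Utf1 higher in 5 libraries. The lower part of the order had clearer steps. Sall4 had 133 (95.9 to 159), below Dppa4 in range. Tdh had 44.2 (41.8 to 77.5), below Sall4 in range. Lin28a had 20.1 (8.09 to 34.0) and was below Tdh in range, while Sox2, with 13.7 (9.38 to 19.1), overlapped Lin28a and was lower in 5 libraries. Pou5f1 and Sox2 act on DNA as partners, yet the Pou5f1 level per length was 30.6 to 68.9 times that of Sox2. Levels were taken from ICM RNA in bulk, in which fewer cells of a type and less RNA per cell cannot be told apart.

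**Figure D1:**
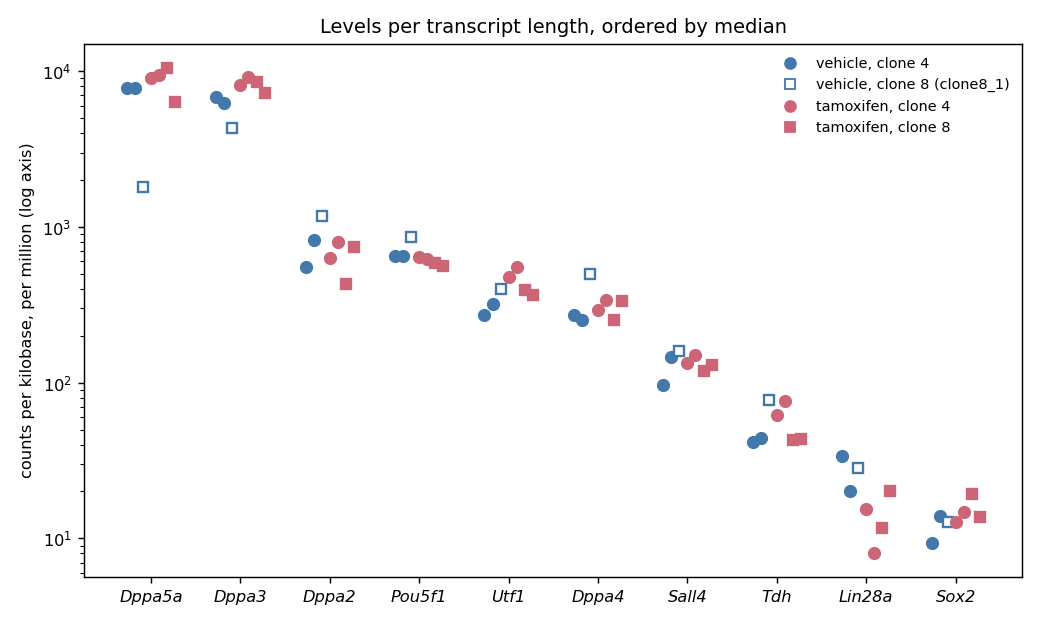
Level of each member in each of the 7 libraries, in counts per kilobase of typical transcript scaled to the same sum in each library, on a log axis. Circles are clone 4 and squares clone 8; vehicle is blue and tamoxifen red, and the open square is vehicle clone8_1. The members fall from a median of 7829 for Dppa5a to 13.7 for Sox2, and the open square lies lowest of all libraries for Dppa5a and Dppa3.

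Tamoxifen for 4 h left the members without a called change. None of the 10 passed an adjusted p under 0.05 in the quasi-likelihood test of edgeR (Benjamini-Hochberg adjusted over all tested genes), where the smallest adjusted p of a member was 0.794 and 0% of 16248 tested genes were called. DESeq2 also called 0 members, and 4 of 16227 genes with an adjusted p (0.0247%). At an unadjusted p under 0.05, 3 members stood out, Utf1 and Dppa3 with higher and Lin28a with lower values after tamoxifen, against 5.97% of all tested genes. The groups did not overlap for Utf1 and Dppa3, both higher, where 3.71% of tested genes were higher without overlap and 4.74% lower. The median log2 fold change was 0.15 over the members (6 higher, 4 lower) and 0.019 over all tested genes.

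The transcription factors of the core come first. Pou5f1 (ENSMUSG00000024406, chromosome 17, 35506018 to 35510772, plus strand, 5 exons, 1362 nt) encodes the POU-domain factor that defines pluripotent cells. It had 573, 548 and 592 CPM in vehicle clone4_1, clone4_2 and clone8_1, and 556, 513, 538 and 484 CPM in tamoxifen clone4_1, clone4_2, clone8_1 and clone8_2. The groups overlapped narrowly, and the highest library was only 1.22 times the lowest, the smallest such ratio among the members. Its log2 fold change was -0.13 ± 0.14 (SE), with a 95% interval from -0.43 to 0.18 and an adjusted p of 0.851 (edgeR). Without vehicle clone8_1 it was -0.11.

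Sox2 (ENSMUSG00000074637, chromosome 3, 34650405 to 34652461, plus strand, 1 exon, 2057 nt) encodes the HMG-box partner of the Pou5f1 product. It had 12.6, 17.7 and 13.4 CPM in the vehicle libraries, in the order given above for Pou5f1. In the tamoxifen libraries it had 16.6, 18.4, 26.6 and 17.8 CPM. Tamoxifen clone8_1 was the highest, and vehicle clone4_2 lay among the tamoxifen values. As a log2 fold change this was 0.45 ± 0.25 (SE), with a 95% interval from -0.10 to 1.00 and an adjusted p of 0.794 (edgeR). Without tamoxifen clone8_1 it was 0.28 and without vehicle clone8_1 it was 0.38. Sox2 lies inside the same-strand noncoding gene Sox2ot, which held 1 to 27 counts against 428 to 736 counts for Sox2. Whether reads from the Sox2Cre transgene were counted at Sox2 is not given in the sources used here.

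Sall4 (ENSMUSG00000027547, chromosome 2, 168748332 to 168767943, minus strand, 3741 nt) encodes a zinc-finger factor that recruits the NuRD deacetylase complex. It had 233, 337 and 301 CPM in vehicle and 317, 340, 300 and 307 CPM in tamoxifen libraries. Vehicle clone4_1 was the lowest library and the rest lay close together. The log2 fold change was 0.12 ± 0.17 (SE; 95% interval -0.25 to 0.49; adjusted p 0.883, edgeR), and it was -0.029 without vehicle clone4_1 and 0.14 without vehicle clone8_1.

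Utf1 (ENSMUSG00000047751, chromosome 7, 139943789 to 139945112, plus strand, 2 exons, 1227 nt), a chromatin-bound protein of pluripotent cells, had the smallest p of the members. It had 216, 241 and 249 CPM in the vehicle libraries and 371, 408, 326 and 283 CPM in tamoxifen clone4_1, clone4_2, clone8_1 and clone8_2. Every tamoxifen library was above every vehicle library, with the clone 4 libraries highest. Means were 235 ± 16.9 CPM (SD, n = 3) and 347 ± 54.3 CPM (SD, n = 4). In the fit its log2 fold change was 0.56 ± 0.17 (SE), with a 95% interval from 0.18 to 0.94, an unadjusted p of 0.00817 and, after Benjamini-Hochberg adjustment, an adjusted p of 0.794 (edgeR). Without vehicle clone8_1 it was 0.59.

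The genomic windows upstream of Utf1 and Lin28a are shown because these members had the smallest unadjusted p among the higher and among the lower members and have an entry among RefSeq promoters (GRCm38.p6), as 4 of the 10 members do. Each window ends at the base before the earlier of the RefSeq and GENCODE starts, so it holds no transcribed base of these models. In these sequences capitals mark GGGCGG, the GC box bound by Sp-family factors, searched on both strands with overlaps counted. The Utf1 window is chr7:139943606-139943788, plus strand, and the Lin28a window is chr4:134018842-134019066, minus strand.
Utf1: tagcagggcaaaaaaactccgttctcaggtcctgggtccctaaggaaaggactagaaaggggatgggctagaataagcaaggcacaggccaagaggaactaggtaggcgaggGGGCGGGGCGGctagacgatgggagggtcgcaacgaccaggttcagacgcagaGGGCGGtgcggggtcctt
Lin28a: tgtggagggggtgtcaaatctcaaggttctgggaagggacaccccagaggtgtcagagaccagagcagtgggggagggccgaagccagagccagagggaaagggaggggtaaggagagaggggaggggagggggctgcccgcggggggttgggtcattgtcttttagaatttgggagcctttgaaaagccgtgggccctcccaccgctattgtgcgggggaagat
The Utf1 window held 3 matches, the first 2 of which overlap, in 183 bases, and 21.5% of 32851 RefSeq promoters held at least 1 in a window of that length. The Lin28a window held none in 225 bases, where 29.2% of promoters held a match. For both shares the promoters were read over the same stretch relative to the RefSeq start, and not up to that start. Neither the Utf1 nor the Lin28a window held AGGTCA, the hexamer bound by nuclear receptors. ATGCAAA, the core of the octamer bound by POU factors, was also absent from them (on both strands). The windows describe letters only, and no binding was measured in these libraries.

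Lin28a (ENSMUSG00000050966, chromosome 4, 134003330 to 134018841, minus strand, 4 exons, 3505 nt) encodes an RNA-binding protein that blocks maturation of let-7 microRNAs. It had 77.4, 43.8 and 49.95 CPM in vehicle and 34.2, 17.2, 27.7 and 44.8 CPM in tamoxifen libraries. Vehicle clone4_1 was high and tamoxifen clone4_2 low, and tamoxifen clone8_2 lay above vehicle clone4_2, so the groups overlapped. Means were 57.1 ± 17.9 CPM (SD, n = 3) and 31.0 ± 11.6 CPM (SD, n = 4). The log2 fold change was -0.88 ± 0.32 (SE), with a 95% interval from -1.58 to -0.18, an unadjusted p of 0.0192 and, after Benjamini-Hochberg adjustment, an adjusted p of 0.794 (edgeR). Without vehicle clone4_1 it was -0.61 and without vehicle clone8_1 it was -0.98. Lin28a spread more over the libraries other than vehicle clone8_1 than any other member, 4.51 times from lowest to highest.

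Dppa2 and Dppa4, SAP-domain proteins that bind DNA as a pair, are neighbours on chromosome 16, with 9670 bp from the end of Dppa4 to the start of Dppa2. Dppa2 (ENSMUSG00000072419, 48303908 to 48319723, plus strand, typical length 2197.5 nt) had 787, 1113 and 1313 CPM in vehicle and 884, 1056, 641 and 1042 CPM in tamoxifen libraries. Its lowest value was in tamoxifen clone8_1 and its highest in vehicle clone8_1. On the log2 scale the change was -0.24 ± 0.22 (SE, 95% interval -0.74 to 0.26, adjusted p 0.836, edgeR), and -0.077 without vehicle clone8_1. Dppa4 (ENSMUSG00000058550, 48283733 to 48294237, plus strand, 1375 nt) had 243, 215 and 347 CPM in vehicle and 257, 281, 234 and 291 CPM in tamoxifen libraries. Vehicle clone8_1 was again the highest, with all others between 215 and 291 CPM. Its log2 fold change was -0.01 ± 0.19 (SE; 95% interval -0.44 to 0.42; adjusted p 0.991, edgeR), and 0.21 without vehicle clone8_1, so its direction turned. Per length, Dppa2 stood at 1.71 to 3.24 times Dppa4 over the libraries.

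Dppa3 (ENSMUSG00000046323, chromosome 6, 122626410 to 122630272, plus strand, 4 exons, 833 nt) had 3719, 3222 and 1819 CPM in vehicle and 4289, 4619, 4766 and 3847 CPM in tamoxifen libraries. All tamoxifen libraries were above all vehicle libraries, and vehicle clone8_1 was far the lowest. Means were 2920 ± 985 CPM (SD, n = 3) and 4380 ± 408 CPM (SD, n = 4). The log2 fold change was 0.58 ± 0.23 (SE), with a 95% interval from 0.08 to 1.09, an unadjusted p of 0.0270 and, after Benjamini-Hochberg adjustment, an adjusted p of 0.794 (edgeR). Without vehicle clone8_1 the log2 fold change was 0.33 ± 0.12 (SE). Leaving out the lowest vehicle library cannot make the groups overlap, so it does not test the separation.

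Dppa5a (ENSMUSG00000060461, chromosome 9, 78367052 to 78368177, minus strand, 3 exons, 619 nt) is the shortest member. It had 3137, 2990 and 562 CPM in vehicle and 3555, 3516, 4359 and 2503 CPM in tamoxifen libraries. Vehicle clone8_1 was far below the rest, and the other vehicle libraries lay inside the tamoxifen range. Means were 2230 ± 1446 CPM (SD, n = 3) and 3483 ± 760 CPM (SD, n = 4). As a log2 fold change this was 0.64 ± 0.47 (SE), with a 95% interval from -0.40 to 1.69 and an adjusted p of 0.803 (edgeR). Without vehicle clone8_1 it was 0.18 ± 0.18 (SE).

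Tdh (ENSMUSG00000021953, chromosome 14, 63492347 to 63509092, minus strand, 9 exons, 1881 nt) encodes threonine dehydrogenase, which feeds one-carbon metabolism in mouse embryonic stem cells. It had 51.1, 51.3 and 73.95 CPM in vehicle and 74.3, 87.2, 54.7 and 51.8 CPM in tamoxifen libraries. The clone 4 tamoxifen libraries and vehicle clone8_1 were high and the other 4 libraries low. The log2 fold change was 0.19 ± 0.23 (SE; 95% interval -0.33 to 0.71; adjusted p 0.869, edgeR), and 0.38 without vehicle clone8_1.

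**Figure D2:**
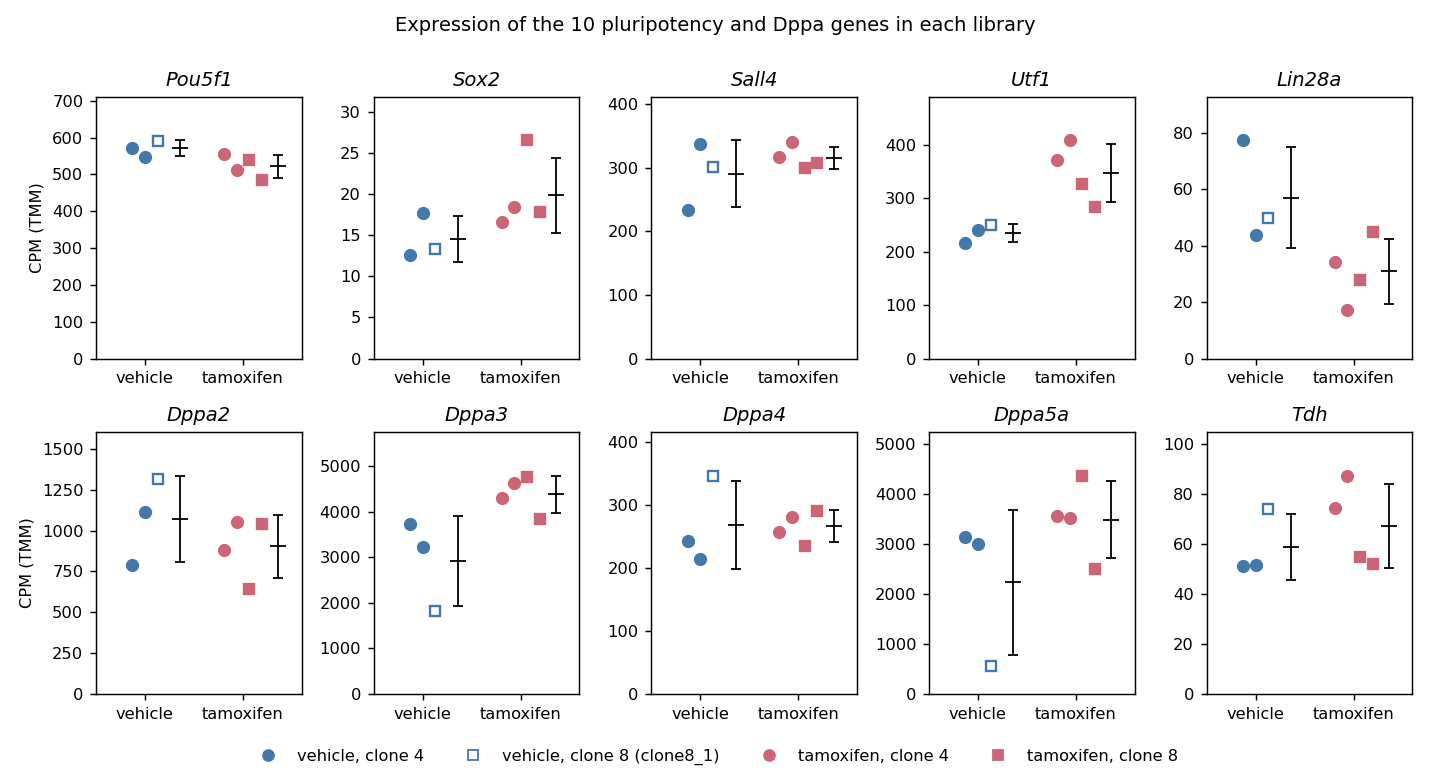
CPM (scaled by TMM) of each member in every library, each panel with its own axis from 0; circles are clone 4, squares clone 8, the open square vehicle clone8_1, and the black bars mean ± SD of 3 vehicle and 4 tamoxifen libraries. All tamoxifen libraries lie above all vehicle libraries for Utf1 and Dppa3, and the open square is the lowest point for Dppa3 (1819 CPM) and Dppa5a (562 CPM).

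Near-identical copies bear on the counts of the Dppa genes. Dppa3 has an annotated processed copy on chromosome X, Dppa3-ps (37625647 to 37626097, minus strand). Over its 451 aligned bases 98.23% were identical to the Dppa3 transcript, and 17.22% of the 784 windows of 50 bases in Dppa3 occurred in the copy letter for letter. A stretch of 120 bases of Dppa3 coding sequence (GENCODE M21, GRCm38) and the same stretch of the copy are shown. It starts at the first coding base that aligned. Capitals mark the 2 bases that differ.
Dppa3: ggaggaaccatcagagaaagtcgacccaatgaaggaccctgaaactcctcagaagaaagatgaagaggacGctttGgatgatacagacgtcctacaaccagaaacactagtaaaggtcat
Dppa3-ps: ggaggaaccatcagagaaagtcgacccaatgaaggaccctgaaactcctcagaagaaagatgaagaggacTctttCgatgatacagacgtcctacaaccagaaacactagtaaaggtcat
Dppa3-ps held 183 to 485 counts over the libraries, which is 0.214% to 0.268% of the Dppa3 counts. Dppa5a has annotated copies on chromosome 9, Dppa5b and Dppa5c, each 96.32% identical to Dppa5a where aligned and sharing 10.0% of its windows. They had at most 1 count in a library. How reads that fit several places were counted is not given in the sources used here. Genes on the other strand overlap Pou5f1, Sall4, Lin28a and Tdh and had at most 8 counts in a library.

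The clones were compared next, since clone 8 had 1 vehicle library. Within clone 4, which had 2 libraries in each condition, 0% of 16060 tested genes were called, and the adjusted p of the members ran from 0.550 to 0.993 (quasi-likelihood test of edgeR, Benjamini-Hochberg adjusted). Before adjustment 1264 genes (7.87%) had p under 0.05, 4 of them members. These were Utf1, with a log2 fold change of 0.76 ± 0.14 (SE; 95% interval 0.42 to 1.099), Tdh with 0.65 ± 0.18, Dppa3 with 0.35 ± 0.13 and Lin28a with -1.24 ± 0.39. With DESeq2, and also without a filter on low counts, Utf1 and Lin28a were called within clone 4. Their adjusted p-values were 0.00365 and 0.0310 with DESeq2, which called 142 of 9833 genes with an adjusted p (1.44%). Without the filter, in edgeR, they were 0.00421 and 0.000336, where 217 of 26236 genes were called (0.827%). For the other 6 members the log2 fold change in clone 4 lay between -0.08 (Pou5f1) and 0.22 (Dppa4).

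In clone 8 the 2 tamoxifen libraries were set against vehicle clone8_1 as values with no test. The log2 difference was 0.29 for Utf1, -0.50 for Lin28a and 1.23 for Dppa3, each in the same direction as in clone 4. Sox2 (0.70 in clone 8, 0.20 in clone 4) and Pou5f1 (-0.21 and -0.08) also shared their sign. For Tdh the difference was -0.47, for Dppa4 -0.41 and for Dppa2 -0.68, the opposite sign to clone 4. Dppa5a differed by 2.55 in clone 8 and by 0.20 ± 0.11 (SE) in clone 4.

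**Figure D3:**
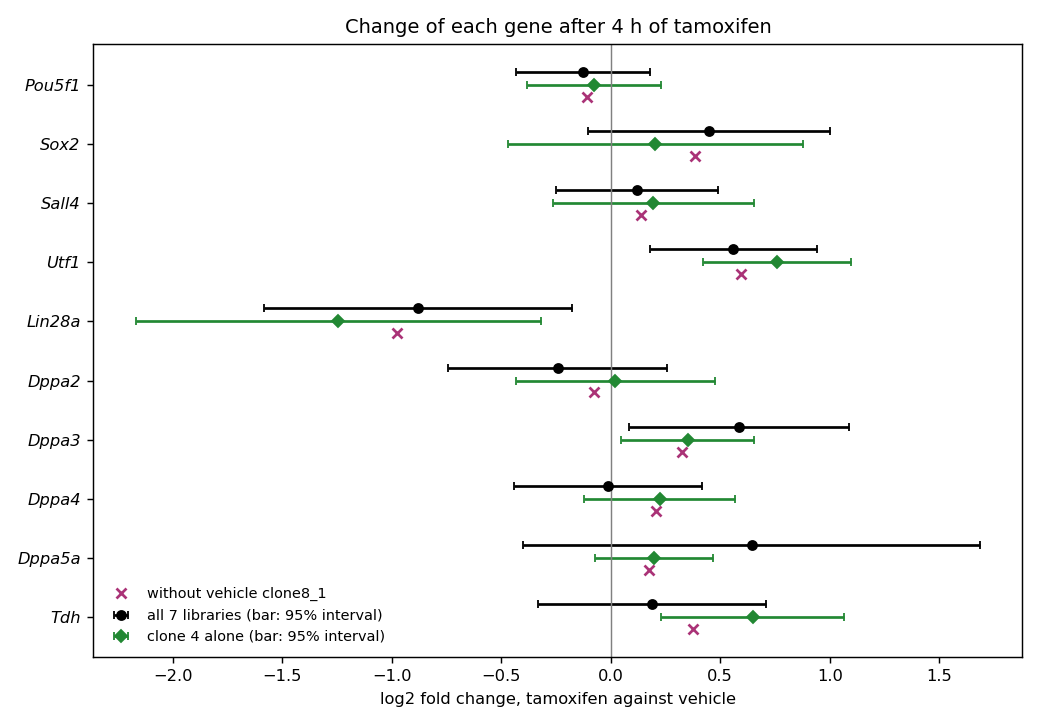
Log2 fold change of each member, tamoxifen against vehicle, from all 7 libraries (black), clone 4 alone (green) and without vehicle clone8_1 (crosses); bars are 95% intervals of the edgeR fits. Utf1 stays between 0.56 and 0.76 and Lin28a between -1.24 and -0.88 over the 3 fits, while Dppa5a drops from 0.64 to 0.18 without vehicle clone8_1.

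The interaction of clone and condition tested whether the effect differed between clones. It was called in 3.16% of tested genes, 514 of 16248, and 510 of these had the higher change in clone 8 (quasi-likelihood test of edgeR, Benjamini-Hochberg adjusted). Of the members 1 was called, Dppa5a, with an interaction of 2.40 ± 0.38 (SE; 95% interval 1.54 to 3.27; adjusted p 0.0128, edgeR). Dppa3, at 0.88 ± 0.24 (SE; adjusted p 0.115), and Tdh, at -1.13 ± 0.30 (SE; adjusted p 0.106), were not called. Clone and library cannot be told apart here, since a single library stands for vehicle in clone 8. The Dppa5a call did not hold when vehicle clone4_1, tamoxifen clone4_1 or tamoxifen clone4_2 was left out (adjusted p 0.0521 to 0.0977, edgeR), while its size stayed at 2.34, 2.37 and 2.38.

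The members were then read against transcript length. In vehicle clone8_1 Dppa5a (619 nt) deviated from the median library by -2.48 on the log2 scale and Dppa3 (833 nt) by -1.08. The median of their length class, 600 nt to under 1000 nt, was -1.16, and Dppa5a lies near its lower edge, beside a class with a median of -2.16. The other 8 members, from 1227 nt to 3741 nt, deviated by -0.40 (Sox2) to 0.44 (Tdh). The median of the other 6 libraries was 5.92 times the value of vehicle clone8_1 for Dppa5a and 2.24 times for Dppa3. Pou5f1, Dppa2 and Dppa4, all over 1000 nt, were highest in this library. The 2 members under 1000 nt were thus the ones farthest from the median library there. Both were highest in tamoxifen clone8_1, at 0.47 (Dppa5a) and 0.31 (Dppa3) above the median library.

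The ratio of Dppa3 to Dppa5a per length was 0.80 to 1.14 in 6 libraries and 2.41 in vehicle clone8_1. Among all protein-coding genes the interaction was called in 42.7% of those under 600 nt and 23.5% of those from 600 nt to under 1000 nt, against 2.11%, 0.734% and 0.258% in the 3 longer classes. With an offset for transcript length in the fit, the Dppa5a interaction was 1.02 with an adjusted p of 0.228, and that of Dppa3 was -0.10 (edgeR). With the same offset the log2 fold change over all libraries was 0.42 for Dppa5a, 0.31 for Dppa3 and 0.47 for Utf1.

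**Figure D4:**
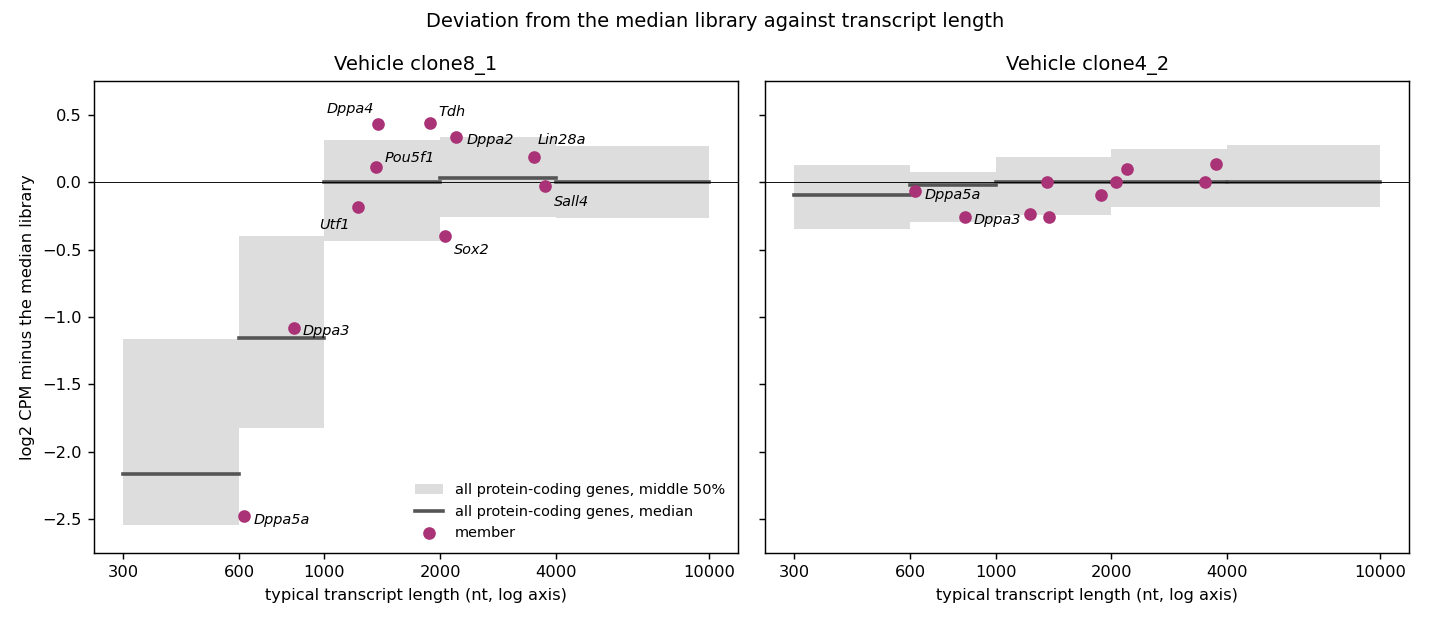
Deviation of each member from the median library (log2 CPM) against typical transcript length in nt (log axis), in vehicle clone8_1 (left) and vehicle clone4_2 (right); grey boxes hold the middle 50% of all tested protein-coding genes of a length class, dark lines their medians, and the outermost classes are open-ended. In vehicle clone8_1 Dppa3 (-1.08) lies within the middle 50% of its length class, and Dppa5a (-2.48) lies below that of the same class. In vehicle clone4_2 Dppa5a lies at -0.07 and Dppa3 at -0.26.

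The genes most like Pou5f1 and Dppa5a over the 7 libraries were found by the root mean square difference of centred log2 CPM, among 8052 genes with a mean of at least 10 CPM. Nearest to Pou5f1 were Commd8 (0.021), Vdac1 (0.047) and Dcaf4 (0.055). The 20 nearest had a median transcript of 2031.75 nt. Pou5f1 itself varied little, its highest library being 1.22 times its lowest. A small difference from it therefore picks genes that also vary little, and need not mark a shared pattern. Nearest to Dppa5a were Rpl29 (0.124; 710 nt), Hint2 (0.129; 610 nt) and Uqcc2 (0.131; 452 nt). Its 20 nearest had a median transcript of 614 nt, close to the 619 nt of Dppa5a itself. These likenesses describe 7 libraries that share vehicle clone8_1.

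Other genes of the members' pathways were taken from 5 lists of 50 genes, all of which were tested. None was called by the quasi-likelihood test of edgeR with Benjamini-Hochberg adjustment, 27 had higher and 23 lower values with tamoxifen, and the median log2 fold change was 0.027. Before adjustment 3 of the 50 had p under 0.05, near the 5.97% of all tested genes. Groups did not overlap for 5 genes (10.0%), against 8.45% of all tested genes in either direction. All 5 were lower, where 4.74% of all tested genes were lower and 3.71% higher without overlap. These 5 were Nr5a2, Mta2, Gatad2a, Tut7 and Mat2a. Among 10 partners of the core network 7 were higher and 3 lower. Esrrb, a nuclear receptor of naive cells, had 42.9, 59.7 and 54.8 CPM in vehicle and 66.9, 76.9, 57.1 and 70.5 CPM in tamoxifen libraries, a log2 fold change of 0.37 ± 0.18 (SE). Nr5a2, a nuclear receptor that binds at the Pou5f1 gene, had a log2 fold change of -0.21 ± 0.15 (SE).

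Among 11 subunits of NuRD, the complex that Sall4 protein recruits, 5 were higher and 6 lower. The histone-binding subunit Rbbp7 had the log2 fold change -0.34 ± 0.18 (SE), Mta2 -0.31 ± 0.16 (SE) and Gatad2a -0.22 ± 0.14 (SE). Of 10 genes of the Lin28 and let-7 axis 4 were higher and 6 lower. Hmga2, a chromatin protein whose message is a let-7 target, had 101, 99.7 and 84.6 CPM in vehicle and 150, 138, 180.5 and 91.2 CPM in tamoxifen libraries, a log2 difference of 0.55 ± 0.23 (SE; p 0.033 before adjustment, edgeR). Tamoxifen clone8_2 lay among the vehicle libraries. Tut7, a terminal uridylyltransferase that modifies the let-7 precursor with Lin28, had the log2 fold change -0.49 ± 0.27 (SE).

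Of 11 threonine and one-carbon enzymes 5 were higher and 6 lower. Amt, the aminomethyltransferase of glycine cleavage, had 39.7, 46.4 and 15.4 CPM in vehicle and 77.2, 69.7, 72.3 and 44.6 CPM in tamoxifen libraries, a log2 difference of 0.96 ± 0.35 (SE; p 0.021 before adjustment, edgeR). Vehicle clone8_1 was the lowest and the groups overlapped. Mat2a, which makes S-adenosylmethionine, had 279, 387 and 323 CPM in vehicle and 253, 250, 237 and 265 CPM in tamoxifen libraries, without overlap, and a log2 difference of -0.39 ± 0.16 (SE; p 0.032 before adjustment, edgeR). Among 8 KH-domain relatives of Dppa5a and subunits of the subcortical maternal complex of the oocyte, 6 were higher and 2 lower. Khdc3, a KH-domain subunit of that complex, had the smallest p of the list. It had 733, 849 and 989 CPM in vehicle and 896, 1097, 1051 and 1102 CPM in tamoxifen libraries. Its log2 fold change was 0.27 ± 0.16 (SE).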

How the data were processed

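The authors deposited raw counts for each Ensembl gene ID, 1 column per library, without normalisation. The submitters' processing notes name bcl2fastq 2.19.1, STAR 2.5.3a and mm10, with no role or order. The counting program, annotation release, strand setting and handling of duplicates and multi-mapping reads are not given in the sources used here. The kit amplifies low-input RNA, and without molecular identifiers reads are not independent molecules.

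Symbols, coordinates and lengths are from GENCODE M21 (GRCm38), to which 52489 of 52636 gene IDs matched. The typical length is the median over a gene's transcripts of the basic set. Counts were tested in R 4.3.3 with edgeR 4.0.16 (TMM scaling, the filter on low counts applied by group, quasi-likelihood test, condition as the only term) over all genes, with Benjamini-Hochberg adjustment and a threshold of 0.05. CPM used the TMM factors, and log2 values a prior count of 2. Fits were tested on simulated data. Alternatives were DESeq2 1.42.0, its size factors, no filter, clone as a covariate, a replicate block, an offset for length (lowess, span 0.2) and leaving out libraries. The text names all 10 members, their annotated copies and the 3 genes nearest to Pou5f1 and Dppa5a. From each list it names up to 4 genes with the smallest p. The genes of the lists without overlap and some further lineage markers were named after their values were seen. The members and lists were chosen with earlier results of these data known.

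The lists were network partners, NuRD subunits, the Lin28 and let-7 axis, threonine and one-carbon enzymes, KH-domain relatives with the subcortical maternal complex, and markers of naive epiblast, primitive endoderm and trophectoderm.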

Additional observations from a re-analysis of the deposited data

Results flagged for a closer look

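The effect of tamoxifen on Dppa5a differed between the clones, with an interaction of 2.40 on the log2 scale (edgeR's quasi-likelihood test, Benjamini-Hochberg adjusted p 0.0128). The value rests on vehicle clone8_1, where Dppa5a had 562 CPM against 2503 to 4359 CPM in the other 6 libraries, and with an offset for transcript length it was 1.02 (adjusted p 0.228). Clone and library cannot be told apart.

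In the 4 tamoxifen libraries, 41 genes of the members and lists were examined for a single library far from the other 3, and 2 were found, both in clone8_1. Mta1, a NuRD subunit, had 31.1 CPM there, against 13.2, 13.5 and 9.88 CPM in clone4_1, clone4_2 and clone8_2. Gata6, a primitive endoderm factor, had 150.6 CPM there, against 71.9, 70.1 and 70.3 CPM. Chance gives about 1 in 20 such groups, and no member was among them.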

How the results depend on the processing

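No member was called for condition under any of the 14 alternatives. Utf1 and Dppa3 also had groups without overlap with the size factors of DESeq2, without a filter and with the length offset. With the length offset Pou5f1 had such groups as well, which made 3 members. The share over all tested genes was not computed with that offset. Leaving out libraries cannot test the Utf1 and Dppa3 separation, since groups that lie apart stay apart with fewer libraries, beyond small changes of scaling. DESeq2 called 4 genes of all those tested and the fit without both libraries numbered clone8_1 called 2. Between 2 and 5 members had groups without overlap when single libraries were left out, and 4 without both clone8_1 libraries. Smaller groups lie apart more often by chance. The share over all tested genes was not computed for these sets, so the counts are no result about the members. Directions turned for Sall4 (-0.029 without vehicle clone4_1; at most 0.24, without vehicle clone4_2), Dppa4 (as low as -0.15 without vehicle clone4_2, and 0.21 without vehicle clone8_1, 0.045 without tamoxifen clone8_1, 0.27 without both) and Dppa2 (0.061 without both). For the interaction they turned for Dppa3 (-0.10 with the length offset) and Sall4 (0.023 without vehicle clone4_1; as low as -0.48 without vehicle clone4_2). The interaction was called in 991 genes (2 members) without a filter, 1016 (2) with DESeq2 and 121 (0) with the length offset. Leaving out single libraries gave 52 to 695 genes and 0 to 1 members. Within clone 4, 217 genes (2 members) were called without a filter and 142 (2) with DESeq2. The cause was not tested in any of these.

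Libraries with the same number were from different embryos. The correlations of their deviations from the group means were 0.00775, 0.0206 and -0.0683. With means of 3 and 4 libraries, vehicle clone8_1 among them, these values cannot decide whether the numbers pair libraries. The replicate block called 0 genes for condition (721 at an unadjusted p under 0.05, edgeR), with log2 fold changes of -1.13 for Lin28a and 1.06 for Dppa5a. With 3 and 4 libraries, intervals were wide for Dppa5a and Lin28a. The lowest count of a member in a library was 398; how far depth limits the values was not tested.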
